A study of Sus scrofa with 6 samples.

Results

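Genes of ion channels and gap junctions were examined in porcine granulosa cells (GCs), the somatic cells that surround the oocyte, after overexpression of *RBP4*, the plasma carrier of retinol. Members were the genes with an Ensembl pig symbol, or a symbol in the study's own tables, of the families *KCN* (potassium channels), *SCN* followed by a digit (voltage-gated sodium channels), *CACNA* and *CACNB* (voltage-gated calcium channels), *CLCN* and *CLIC* (chloride channels and CLIC proteins), *TRPC*, *TRPM* and *TRPV* (transient receptor potential channels), *GJA*, *GJB* and *GJC* (connexins), *PIEZO*, *ORAI*, *STIM* and *ITPR*. This rule found 119 of the 17950 genes in the deposited table. No *PIEZO* gene was found by name, and *CLIC6* was the only *CLIC* gene found. A total of 188 protein-coding symbols of these families are listed for the pig in RefSeq (assembly Sscrofa11.1), of which 117 were among the members and 71 were not found by name, *ORAI1*, *KCNQ1*, *KCNMB1* and *GJB2* among them. *TRPC4AP* was taken in by its first letters although its protein is an adaptor of a ubiquitin ligase and not a channel subunit.

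The cells were primary GCs of prepubertal Landrace gilts, aspirated from follicles of 3 to 6 mm and cultured in medium with serum. Both groups were infected for 72 h at a multiplicity of infection of 50 with a pLVX-IRES-ZsGreen lentivirus, which makes a green fluorescent protein. The virus carried porcine *RBP4* in the pLVX-*RBP4* group and no insert in the CTRL group, so both groups share the infection and the reporter. There were 3 RNA sequencing libraries per group. For each gene the authors deposited 1 FPKM value per group (a count of fragments normalised for transcript length and sequencing depth). The study's methods do not state how the 3 libraries were combined into this value. The spread between libraries and the depth behind a value cannot be seen in these values. No test could therefore be run, and each difference below is a description, which these values cannot set against the variation between cultures. Values given in pairs are those of the CTRL group and then of the pLVX-*RBP4* group. Fewer cells of a type and less RNA per cell cannot be told apart in such bulk values.

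Ion channels set the membrane potential and admit calcium, sodium, potassium or chloride along their gradients. In GCs, calcium released from the endoplasmic reticulum through IP3 receptors and refilled through STIM and ORAI proteins is part of the response to hormones. Gap junctions are built from connexins and couple GCs with each other and with the oocyte. *GJA1* encodes Cx43, the best known connexin of GCs, and *KCNMA1* encodes the pore of the BK channel, a potassium channel of large conductance opened by calcium and by depolarization.

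The overexpressed gene and cell markers were checked first. *RBP4* had 1.105 FPKM under CTRL and 92.3 FPKM under pLVX-*RBP4*, introduced sequence included. Of the 14 granulosa markers 7 were found, and *CYP11A1* (673 and 669 FPKM in the CTRL and pLVX-*RBP4* groups), *GATA4* (59.2 and 57.8 FPKM) and *FSHR* (9.99 and 8.47 FPKM) were all present. *CYP19A1* and *AMH* were not found by name, and the 7 summed to 834 and 827 FPKM. Of the 5 theca markers 4 were found, summing to 12.3 and 11.8 FPKM, mostly *NR2F2*, with *LHCGR* at 0.209 and 0.0937 FPKM and *INSL3* listed at 0 and at 0.292 FPKM. Markers of other cell types were also measured, and whether they came from other cells was not tested. The leukocyte genes *CD14* (42.9 and 48.9 FPKM) and *CD68* (4.02 and 4.59 FPKM) were measured beside *PTPRC* at 0.229 and 0.166 FPKM, the endothelial gene *PECAM1* had 16.3 and 16.0 FPKM, the epithelial gene *KRT8* had 12.97 and 13.2 FPKM, and the oocyte gene *GDF9* had 3.36 and 3.51 FPKM. Of the remaining endothelial markers found, *KDR* had 3.55 and 3.03 FPKM and *ESAM* was listed at 0 and at 0.0615 FPKM. Both remaining leukocyte markers found were low, *CSF1R* at 0.414 and 0.428 FPKM and *ITGAM* at 0.153 and 0.155 FPKM. The other epithelial markers found were low, *KRT18* at 0.0383 and 0.130 FPKM and *EPCAM* at 0.325 and 0.199 FPKM. The other oocyte marker found, *DDX4*, was listed at 0 and at 0.0671 FPKM. The contractile genes *TAGLN* (1809 and 1891 FPKM) and *ACTA2* (644 and 688 FPKM) were abundant. Summed over the markers found, the leukocyte list (5 of 7) had 47.8 and 54.2 FPKM, the endothelial list (3 of 7) 19.9 and 19.1 FPKM, the epithelial list (3 of 6) 13.3 and 13.5 FPKM and the oocyte list (2 of 7) 3.36 and 3.57 FPKM.

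Most channel genes were weakly expressed in these cells. Only 38 of the 119 members had a mean of at least 1 FPKM over both groups, against 12382 of all 17950 genes, and *GJA1* was the only member above 100 FPKM. A further 44 members (37.0%) had a mean between 0.1 and 1 FPKM, a range that held 15.3% of all genes. Another 35 members (29.4%, against 10.7% of all genes) lay above 0 and below 0.1 FPKM, and *SCN10A* and *KCNA10* were listed at 0 in both groups. The plot of expression levels shows this shift to low values.

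**Figure D1:**
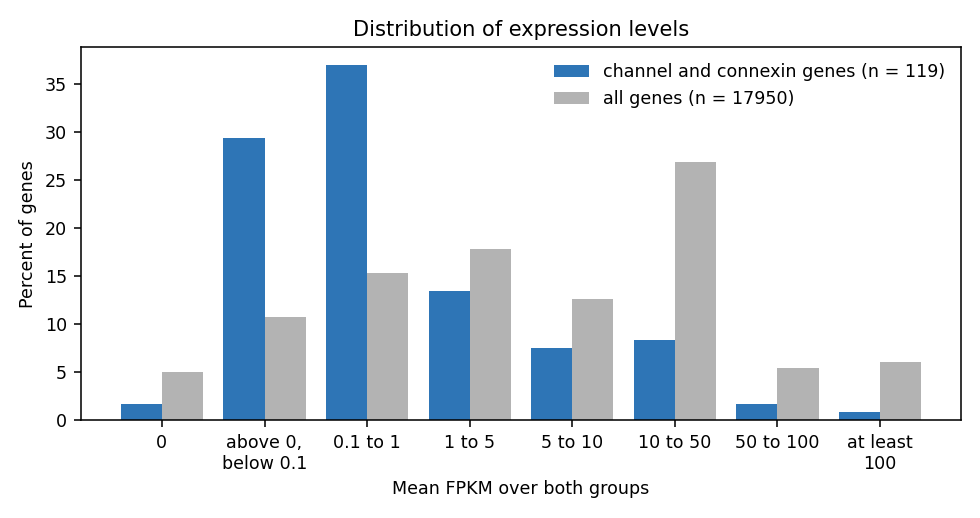
Percent of genes (vertical axis) in classes of mean FPKM over both groups (horizontal axis), for the 119 channel and connexin genes (blue) and all 17950 genes (grey). The class from 0.1 to 1 FPKM holds 37.0% of the channel and connexin genes and 15.3% of all genes.

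Differences were taken as log2(FPKM + 1) of the pLVX-*RBP4* group minus that of the CTRL group, which understates the change of weakly expressed genes. Of the 38 members with a mean of at least 1 FPKM, 28 were lower under pLVX-*RBP4* and 10 higher, while 49.8% of all 12382 genes at this level were lower and 50.2% higher. This split depends on the scaling of the groups. After rescaling both groups to the same sum (TPM), 20 members were lower and 18 higher, with 35.1% of all genes lower. After rescaling to the same sum without the most abundant gene, which moved the median of all genes to -0.10, 33 members were lower and 5 higher, with 69.9% of all genes lower. The median difference of the members was -0.08 as deposited, beside 0.0014 for all genes. Its distance from the median of all genes lay from -0.087 to -0.076 as deposited and under each of the 4 other scalings. A scaling multiplies the values of a group by 1 factor and shifts all genes nearly alike. This distance could therefore hardly change, and its steadiness is not a result about the members. Expression level is related to the split in all genes, since 53.5% of the 8635 genes with a mean between 1 and 25 FPKM were lower. In this range 27 of 35 members were lower.

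The differences were small. A total of 30 of the 38 members lay within 0.25 of 0, with 21.7% of all genes beyond that limit, and the median size of a difference, regardless of direction, was 0.12 for the members and 0.13 for all genes. A difference of at least 0.5 was found downward in 2 members, *KCNMA1* among them (1.84% of all genes), and upward in 0 members (2.21% of all genes). None of the 38 reached a difference of 1 in either direction, which 0.953% of all genes did. Below the 5th percentile of all genes (-0.33) there were 3 members, *KCNMA1* and *CLCN5* among them, and above the 95th percentile (0.37) there were 0.

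**Figure D2:**
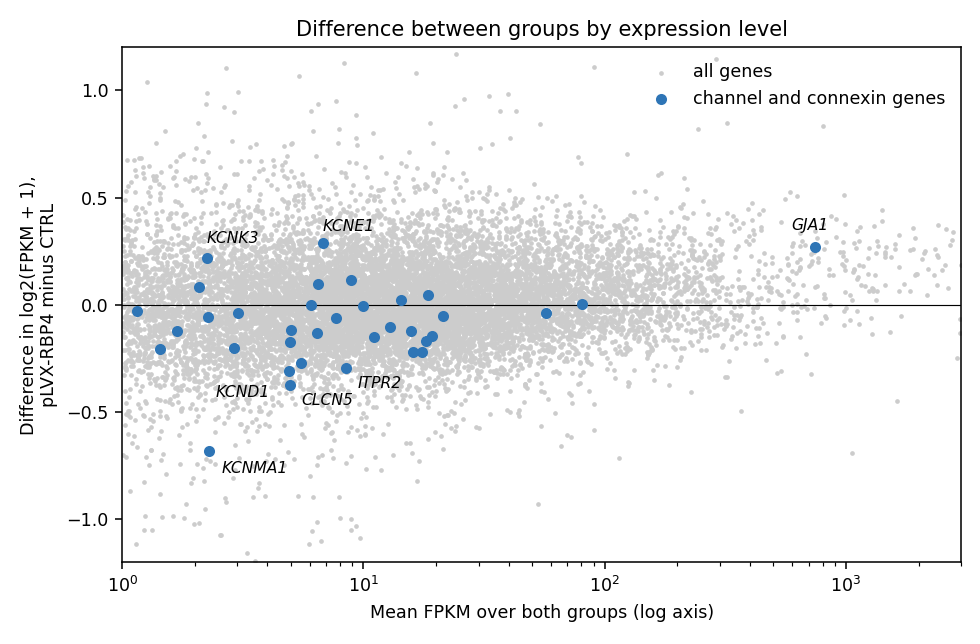
Difference in log2(FPKM + 1), pLVX-*RBP4* minus CTRL (vertical axis), against the mean FPKM over both groups (horizontal log axis), for genes with a mean of at least 1 FPKM. Blue points are 35 of the 38 channel and connexin genes and grey points the other genes, 1 deposited value per group, with genes beyond a difference of 1.2 or a mean of 3000 FPKM not drawn; of the blue points *KCNMA1* lies lowest and *KCNE1* and *GJA1* highest.

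Connexins were dominated by a single gene. *GJA1* (ENSSSCG00000004241), which encodes Cx43, had 675 FPKM under CTRL and 814 FPKM under pLVX-*RBP4*. It was 1.21-fold higher in the pLVX-*RBP4* group, a difference of 0.27, and ranked 152nd and 143rd of all 17950 genes. Of the 1092 genes with a mean of at least 100 FPKM, 32.9% were lower and their median difference was 0.08. Among the 203 genes within 2-fold of its mean level, 44 (21.7%) had an increase at least as large, and their 95th percentile was 0.41. *GJC1* (Cx45, a connexin of low conductance) went the other way, with 17.4 and 14.8 FPKM, a difference of -0.22. The ratio of *GJA1* to *GJC1* was thus 38.9 under CTRL and 55.1 under pLVX-*RBP4*. *GJA1* made up 97.4% and 98.1% of the summed FPKM of the 9 connexin genes found. The other 7 were below 1 FPKM. The highest of them, *GJA9*, had 0.559 and 0.990 FPKM, *GJC3* was listed at 0 in the CTRL group with 0.124 FPKM in the other group, and *GJA5* had 0.121 FPKM in the CTRL group and was listed at 0 in the other group.

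Genes known to act with connexins were read beside them. Of the 23 symbols of this list, 12 were found and 11 had a mean of at least 1 FPKM, of which 4 were higher and 7 lower, with a median difference of -0.13. *CDH2* (N-cadherin, an adhesion molecule of GCs) was the highest, with 399 and 412 FPKM. *TJP1*, the ZO-1 scaffold that binds the tail of Cx43, had 43.5 and 38.4 FPKM. The largest increase was that of *CAV1* (caveolin, 15.9 and 18.3 FPKM, a difference of 0.20), and the largest decrease that of *CCN3* (a secreted matricellular protein that binds Cx43, 2.57 and 1.83 FPKM, -0.34). None of the 11 reached a difference of 0.5.

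Of the 8 genes of calcium-activated potassium channels, 2 had a mean of at least 1 FPKM. *KCNMA1* (ENSSSCG00000010325; chromosome 14, 85796581 to 85996706 on Sscrofa10.2) had 3.06 FPKM under CTRL and 1.53 FPKM under pLVX-*RBP4*. Its CTRL value was 1.998-fold the other value, a difference of -0.68 and a log2 ratio of -0.998. Of the 2731 genes within 2-fold of its mean level, 62 (2.27%) had a decrease at least as large. This gene was also measured by the study with RT-qPCR, and its primers are printed because they mark the transcript that was assayed.
KCNMA1 forward primer: gcacccaaggagatagagaaag
KCNMA1 reverse primer: tcgccaaagatacagaccac
The primers have 22 and 20 bases and no part of them is in capitals, since no site within them is at issue. *KCNMA1* is well known from smooth muscle, so the contractile markers were set beside it. *MYH11* (2.17 and 1.54 FPKM, -0.32) and *DES* (0.584 and 0.413 FPKM) were lower in the pLVX-*RBP4* group, whereas *TAGLN*, *ACTA2*, *CNN1* and *MCAM* had differences between 0.03 and 0.09 as deposited. The median difference of the 5 contractile markers with a mean of at least 1 FPKM, 0.06 as deposited, turned to -0.055 after rescaling without the most abundant gene. All 6 markers found summed to 2481 and 2607 FPKM, and their part in the *KCNMA1* difference was not tested.

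The BK channel has regulatory beta subunits, of which only *KCNMB2* was found, with 0.163 FPKM in the CTRL group and listed at 0 in the other group. *KCNN2*, a channel of small conductance gated through calmodulin, had 1.61 and 1.26 FPKM, a difference of -0.21. The ratio of *KCNMA1* to *KCNN2* was 1.91 under CTRL and 1.22 under pLVX-*RBP4*. The other 5 genes of this class, up to *KCNN1* at 0.342 and 0.382 FPKM, had means below 1 FPKM. The 8 genes found summed to 5.74 FPKM under CTRL and 3.62 FPKM under pLVX-*RBP4*, and *KCNMA1* carries most of that gap.

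Among 24 voltage-gated potassium channel genes, 5 had a mean of at least 1 FPKM. All 5 were lower as deposited, with a median difference of -0.05, but after rescaling to the same sum 3 of them, *KCNH2* and *KCNH4* included, and the median (0.02) turned upward. *KCNH2* (hERG, which repolarizes the heart muscle) was the highest, with 21.7 and 20.9 FPKM and a difference of -0.05. It exceeded *KCNMA1* 7.08-fold under CTRL and 13.6-fold under pLVX-*RBP4*. *KCNA3*, the Kv1.3 channel of lymphocytes, had 5.23 and 4.75 FPKM (-0.12). The largest decrease was that of *KCND1*, which encodes Kv4.1, a channel of the rapidly inactivating type, with 5.52 and 4.27 FPKM (-0.31). *KCNH4* had 3.07 and 2.96 FPKM. *KCNA7* was the highest of the 19 genes with a mean below 1 FPKM, at 0.709 FPKM under CTRL and 0.710 FPKM under pLVX-*RBP4*.

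Accessory subunits bind these channels and change their gating or traffic. *KCNE1*, a partner of *KCNQ1* and *KCNH2* with a single membrane span, had 6.02 FPKM under CTRL and 7.56 FPKM under pLVX-*RBP4*. Its difference of 0.29 was the largest increase among the 38 members, and 359 of the 4404 genes within 2-fold of its level (8.15%) had one at least as large. As a result, the ratio of *KCNH2* to *KCNE1* was 3.60 under CTRL and 2.77 under pLVX-*RBP4*. *KCNE2* (chromosome 13, 207808670 to 207809042 on Sscrofa10.2) had 0.607 FPKM under pLVX-*RBP4* and was listed at 0 under CTRL, while *KCNE5* had 0.261 FPKM in the CTRL group and was listed at 0 in the other. The remaining pair with a mean of at least 1 FPKM was slightly lower as deposited, *KCNAB2* being higher after rescaling to the same sum. *KCNIP3*, a calcium sensor also known as the repressor DREAM, had 1.80 and 1.57 FPKM, and *KCNAB2*, a beta subunit with an aldo-keto reductase fold, had 1.18 and 1.13 FPKM.

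Tandem-pore potassium channels carry the leak current that sets the resting potential. All 3 of these genes with a mean of at least 1 FPKM were higher in the pLVX-*RBP4* group as deposited, with a median difference of 0.12, or 0.0081 after rescaling without the most abundant gene, where *KCNK1* turned downward. *KCNK1* (TWIK1) had 18.2 and 18.8 FPKM, *KCNK2* (TREK1, opened by stretch and lipids) 8.51 and 9.30 FPKM, and *KCNK3* (TASK1, closed by acid) 2.001 and 2.488 FPKM. Their differences were 0.05, 0.12 and 0.22. *KCNK3* was 1.24-fold higher, and 15.0% of the genes at its level had an increase at least as large. Below a mean of 1 FPKM, *KCNK4* (0.235 and 0.0926 FPKM) was the highest of 4 genes. The 7 inward rectifier genes (*KCNJ*) were all below a mean of 1 FPKM, with *KCNJ15* the highest at 0.490 and 0.553 FPKM.

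**Figure D3:**
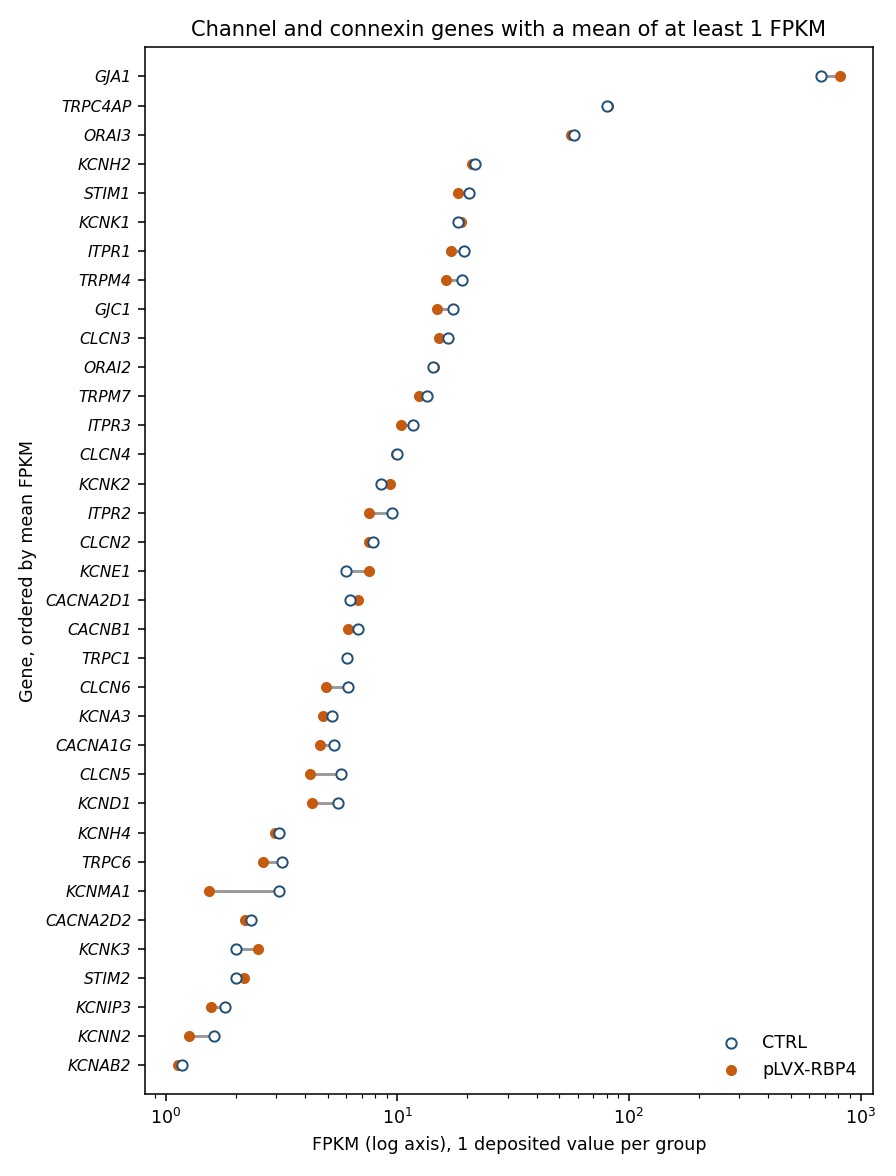
FPKM (horizontal log axis) of 35 of the 38 channel and connexin genes with a mean of at least 1 FPKM, ordered by mean, in the CTRL group (open blue circles) and the pLVX-*RBP4* group (orange), 1 deposited value per group with no error. *GJA1* stands alone at 675 and 814 FPKM, and the longest line is that of *KCNMA1*.

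Of the 11 sodium channel genes found, 9 had a mean below 1 FPKM. *SCN9A*, which encodes Nav1.7, a channel known from pain-sensing neurons, was the highest of these, with 0.977 FPKM under CTRL and 0.908 FPKM under pLVX-*RBP4*.

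Voltage-gated calcium channels were represented at the pore by *CACNA1G*, the T-type channel Cav3.1, with 5.32 and 4.61 FPKM, a difference of -0.17. It was the only *CACNA1* gene of 7 with a mean of at least 1 FPKM. The next, *CACNA1D* (L-type), had 0.731 and 0.699 FPKM. Of the auxiliary subunits, *CACNB1*, a cytoplasmic beta subunit, had 6.78 and 6.10 FPKM (-0.13), *CACNA2D1*, an extracellular alpha2delta subunit and the target of gabapentin, had 6.24 and 6.74 FPKM (0.10), and *CACNA2D2* had 2.33 and 2.20 FPKM (-0.06). The direction of *CACNA2D1* turned downward after rescaling without the most abundant gene. The ratio of *CACNA2D1* to *CACNA1G* was 1.17 under CTRL and 1.46 under pLVX-*RBP4*.

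Store-operated calcium entry and IP3 receptors formed the class in which each gene found passed a mean of 1 FPKM. The 7 genes had a median difference of -0.15, with 5 lower and 2 higher. The 4 *STIM* and *ORAI* genes alone had a median of -0.0075, with 2 lower and 2 higher, and the 3 *ITPR* genes a median of -0.17. *STIM1*, the main calcium sensor of the endoplasmic reticulum, had 20.3 and 18.2 FPKM (-0.15), while *STIM2*, the sensor of small depletions, had 2.0 and 2.18 FPKM (0.08). The ratio of *STIM1* to *STIM2* was 10.1 under CTRL and 8.37 under pLVX-*RBP4*. Of the pore subunits, *ORAI3* had 57.9 and 56.3 FPKM and *ORAI2* 14.2 and 14.5 FPKM. *ORAI3* thus made up 80.3% and 79.6% of the *ORAI* signal found, without *ORAI1*. Both differed by less than 0.05, and *ORAI3* turned upward after rescaling to the same sum and *ORAI2* downward after rescaling without the most abundant gene.

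All 3 IP3 receptors, the calcium release channels of the endoplasmic reticulum, were lower in the pLVX-*RBP4* group under each scaling. *ITPR1* had 19.3 and 17.1 FPKM (-0.17), *ITPR3* had 11.7 and 10.4 FPKM (-0.15), and *ITPR2* had 9.45 and 7.51 FPKM (-0.30). Their order was the same in both groups, and their sum was 40.4 FPKM under CTRL and 35.0 FPKM under pLVX-*RBP4*, a ratio of 0.866. The decrease of *ITPR2* was matched or exceeded by 305 of 4635 genes (6.58%) within 2-fold of its level, whereas for *ITPR1* and *ITPR3* the shares were 17.6% and 21.6%. Other genes of calcium handling were read from a list of 33 symbols. Of these 24 were found and 17 had a mean of at least 1 FPKM, with 11 higher, 6 lower, a median difference of 0.02 and none at a difference of 0.5. The median turned to -0.10 after rescaling without the most abundant gene and to -0.02 without a filter on low values. *CALR*, the calcium-binding chaperone calreticulin, was the highest, with 1300 and 1246 FPKM. *CALM2*, a calmodulin gene, had the largest increase (370 and 465 FPKM, 0.33), and *ATP2A3*, a calcium pump of the endoplasmic reticulum, the largest decrease (2.59 and 2.12 FPKM, -0.20).

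**Figure D4:**
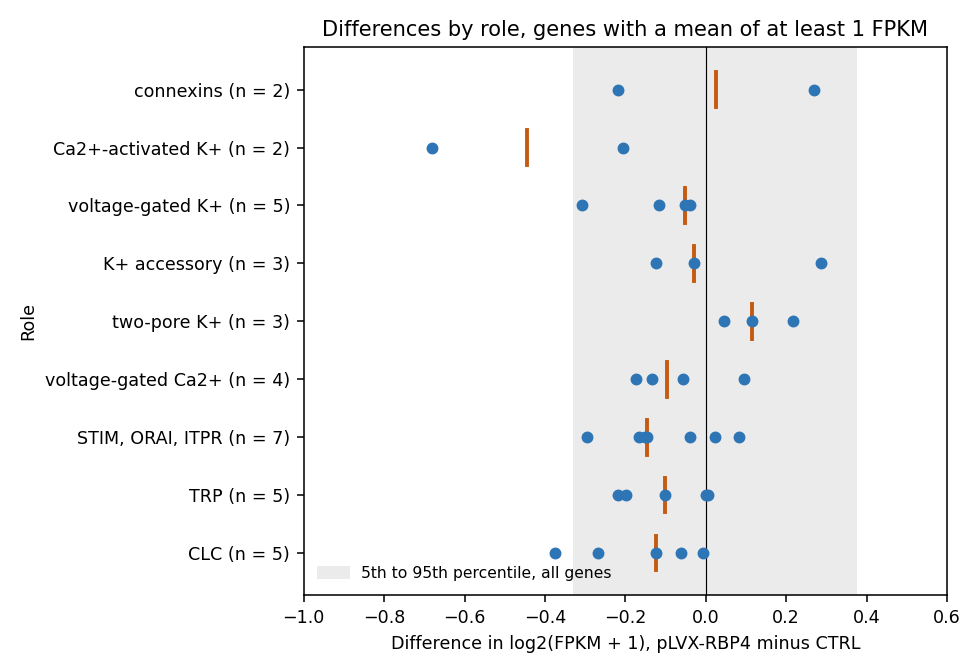
Differences in log2(FPKM + 1), pLVX-*RBP4* minus CTRL (horizontal axis), of 35 of the 38 genes with a mean of at least 1 FPKM, grouped by role (vertical axis). Blue points are genes, orange bars are medians over all genes of a role that have this mean (n), and the grey band spans the 5th to 95th percentile of all 12382 genes (-0.33 to 0.37); 33 of the 35 points lie inside it.

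Transient receptor potential channels are cation channels that respond to lipids, stretch, temperature or calcium. *TRPM4*, a channel for monovalent cations opened by calcium, had 19.0 and 16.2 FPKM (-0.22). *TRPM7*, a magnesium-permeable channel fused to a kinase, had 13.4 and 12.4 FPKM (-0.10). *TRPC1* was nearly equal in both groups, at 6.063 and 6.060 FPKM, and *TRPC6*, opened by diacylglycerol, had 3.17 and 2.63 FPKM (-0.20). *TRPC4AP*, the gene that encodes no channel subunit, had 80.5 and 80.8 FPKM. The other members of this class, with *TRPC4* the highest at 0.947 and 0.937 FPKM and *TRPV2* the *TRPV* gene with the highest mean (0.471 and 0.486 FPKM), had means below 1 FPKM.

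Most CLC proteins are exchangers of chloride and protons in endosomes and lysosomes. Of the 6 genes found, 5 had a mean of at least 1 FPKM, all 5 were lower as deposited and the median difference was -0.12, but *CLCN2* and *CLCN4* turned upward after rescaling to the same sum. *CLCN5*, the endosomal chloride and proton exchanger mutated in Dent disease, had 5.72 FPKM under CTRL and 4.18 FPKM under pLVX-*RBP4*. Its CTRL value was 1.37-fold the other, a difference of -0.38, and 191 of the 3929 genes within 2-fold of its level (4.86%) had a decrease at least as large. *CLCN6*, an exchanger of late endosomes, had 6.14 and 4.92 FPKM (-0.27). *CLCN3*, the highest of the family, had 16.5 and 15.1 FPKM (-0.12). The differences of *CLCN2*, a channel of the plasma membrane (7.88 and 7.51 FPKM), and *CLCN4* (9.94 and 9.88 FPKM) were -0.06 and -0.0071. *CLCN7*, the lysosomal exchanger, had a mean below 1 FPKM (0.203 and 0.136 FPKM), as had *CLIC6* (0.135 and 0.284 FPKM).

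Further lists outside the families were read for comparison. Of 24 symbols of the sodium pump, cation and chloride cotransporters and the volume-regulated anion channel, 13 were found and 9 had a mean of at least 1 FPKM, with 2 higher, 7 lower and a median difference of -0.08. *LRRC8C*, a subunit of the volume-regulated channel, had the largest decrease (20.0 and 16.2 FPKM, -0.29), and *ATP1B2* the largest increase (0.883 and 1.32 FPKM, 0.30). The list of other channels matched 45 genes, of which 19 had a mean of at least 1 FPKM, with 5 higher, 14 lower and a median difference of -0.06, which turned to 0.02 after rescaling to the same sum. *VDAC1*, the channel of the outer mitochondrial membrane, was the highest at 220 and 234 FPKM. *CLNS1A*, once taken for a chloride channel and now known from the assembly of splicing particles, had the largest increase (41.7 and 53.0 FPKM, 0.34), and *MCOLN1*, a lysosomal cation channel, the largest decrease (16.3 and 13.6 FPKM, -0.25). Neither list held a gene with a difference of 0.5.

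Values at the lower end were compared by presence. Above 0 FPKM there were 108 members under CTRL and 102 under pLVX-*RBP4*, with 93 shared. The study's sequencing statistics list more mapped reads for each pLVX-*RBP4* library than for any CTRL library. Presence near 0 was therefore compared at unlike depth, and the part of depth in these counts was not tested. The 15 members above 0 in the CTRL group alone had a median of 0.0680 FPKM and a highest value of 0.261 FPKM (*KCNE5*). The 9 members above 0 in the pLVX-*RBP4* group alone had a median of 0.0326 FPKM and a highest value of 0.607 FPKM (*KCNE2*). These 15 and 9 members were among the 81 with a mean below 1 FPKM, of which 2 were listed at 0 in both groups. Of all genes with a mean above 0 and below 1 FPKM, 11.9% were above 0 in the CTRL group alone and 16.4% in the pLVX-*RBP4* group alone. The larger number was thus in the CTRL group for the members and in the pLVX-*RBP4* group for all genes. Besides those named above, *KCNIP1* (0.112 FPKM) and *KCND3* (0.107 FPKM) were listed at 0 in the pLVX-*RBP4* group, and *KCNC2* (0.108 FPKM) at 0 in the CTRL group. No fold change is given against a value listed at 0, and differences at these levels were not detectable with 1 value per group.

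The scaling of the groups moved differences together. The differences of *KCNMA1* ranged from -0.61 after rescaling to the same sum to -0.75 after rescaling without the most abundant gene. *GJA1* and *KCNE1* stayed above 0 under each scaling. They also stayed above the median of all genes, which a scaling that shifts all genes nearly alike could hardly change.

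**Figure D5:**
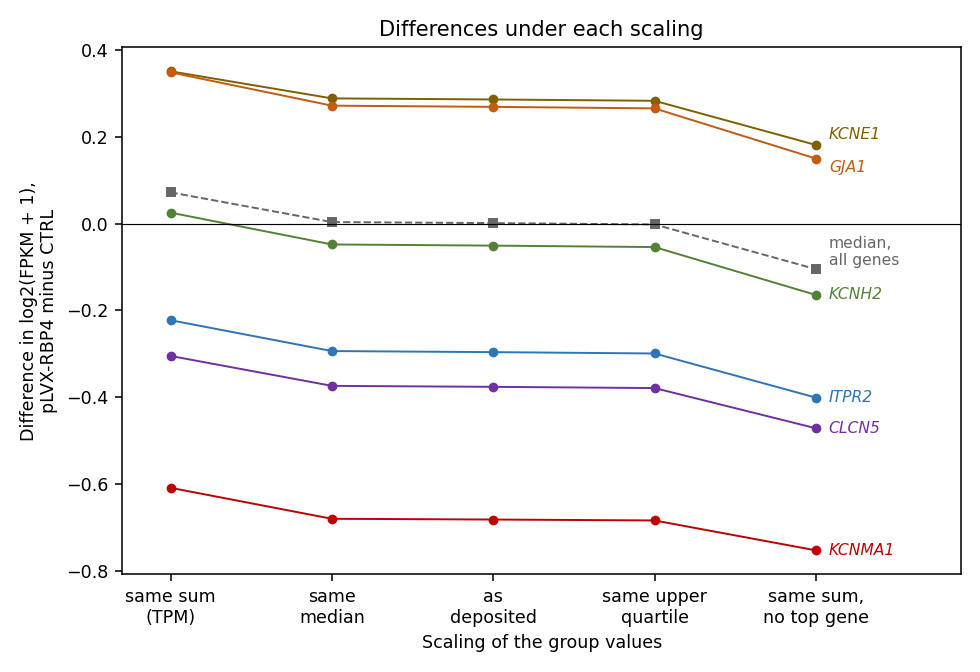
Difference in log2(FPKM + 1), pLVX-*RBP4* minus CTRL (vertical axis), of 6 named genes and the median of all 12382 genes (grey squares) under 5 scalings of the group values (horizontal axis). Lines join the values of a gene; the lines run nearly parallel, and of the 6 genes only *KCNH2* crosses 0.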

How the data were processed

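RNA of porcine GCs was sequenced 72 h after infection, in 3 libraries per group, grouped by the sample titles. According to the study's methods, paired-end reads were filtered and aligned to Sscrofa10.2 (also the build in the submitters' processing notes) with TopHat2. The authors computed FPKM and used Cuffdiff of Cufflinks to compare the groups. Versions and annotation release are not given in the sources used here. The deposited FPKM table holds 1 value per gene and group, so leaving out a library, a test and a standard error could not be had, and the total count per library is not known from it. Both value columns were used and 0 were left out. A limma comparison had been planned for the case of library values.

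Ensembl pig names gave a symbol for 10489 of the 17950 genes, and the study's supplementary tables gave 268 more, among them 5 of the 119 members. From those tables only symbols, positions and primers were taken. RefSeq names (Sscrofa11.1) served to list family members and neighbouring genes, and its coordinates were used only to order genes along a chromosome. The reference held no sequence of genes or proteins, so none is printed.

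Computed here were the difference of log2(FPKM + 1), for counts and medians over genes with a mean of at least 1 FPKM, and, for single genes, the number of genes within 2-fold of its mean FPKM with a difference at least as large. A difference of 0.5 was used as the limit for counting. Genes were named by a rule: *KCNMA1*, *GJA1*, members with a mean of at least 1 FPKM, the highest member of each role, members listed at 0 in 1 group with at least 0.1 FPKM in the other, and the highest and the most changed gene of each other list. Beyond it, marker genes, *TRPV2*, *TJP1*, *SCN10A*, *KCNA10* and neighbouring genes were chosen after their values were seen. A few genes that the rule names are not reported here, though counts and medians include them. Members and lists were chosen with earlier results of these data known. Alternatives were pseudocounts of 0.1 and 0.01, no filter or a mean of at least 5 FPKM, 4 scalings, limits of 0.1 and 1 FPKM for presence and, added after seeing the data, leaving out *TRPC4AP* and the log2 ratio without a pseudocount. Python 3.11.15, numpy 2.4.6, pandas 2.3.3 and matplotlib 3.10.9 were used.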

Additional observations from a re-analysis of the deposited data

How the results depend on the processing

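No paired analysis was possible because the deposited values are 1 per group and carry no replicate numbers, and for the same reason no library could be left out. A value on the log2 scale was taken as moved at 0.1 and a count at 1.5 times. Under the alternatives 178 of 204 summary values and 273 of 303 values of single members did not move, and *KCNMA1* did not change direction. Leaving out *TRPC4AP* cannot change the difference of another gene, so 37 of the 303 values could not move. Each scaling multiplies the values of a group by 1 factor and so shifts all genes nearly alike. Scaling to the same median, upper quartile or sum gave a shift below 0.1, so 0 of the 38 members moved under each. The counts of values that did not move are therefore not read as a sign of stability. Values that did not move can still have changed direction. After rescaling to the same sum, 8 of 38 members changed direction although 0 moved. With pseudocounts of 0.1 and 0.01, and in the log2 ratio without one, 1 member was at least 1 lower, where 0 were as reported. Without a filter on low values 40 members were higher, 77 lower and 1, *KCNE2*, at least 0.5 higher, with 48.0% of all genes lower. With a mean of at least 5 FPKM 15 of 22 members were lower, beside 48.0% of all genes. Of these members 0 were at least 0.5 lower, because both members with such a decrease lie under that mean. The accessory potassium channel subunits, then *KCNE1* alone, had a median of 0.29. After rescaling to the same sum 18 members were higher, and 5 after rescaling without the most abundant gene. The latter moved the medians by about the shift of all genes (-0.10), to -0.16 for voltage-gated and 0.0081 for tandem-pore potassium channels, -0.26 for *STIM*, *ORAI* and *ITPR* genes, -0.21 for TRP and -0.23 for CLC genes, -0.10 for calcium handling, -0.19 for pumps and cotransporters, -0.18 for other channels, -0.25 for connexin partners, -0.17 for granulosa and -0.055 for contractile markers. With presence set at 0.1 FPKM, 8 members were present in the CTRL group alone and 5 in the pLVX-*RBP4* group alone, and at 1 FPKM 1 and 0. The shares of all genes at these limits were not computed, so these counts are not read as a result about the members. The number of fragments behind single values is unknown, which limits members below 1 FPKM most.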

Other observations

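Several sodium channel genes lie next to each other in the pig genome, by the order of protein-coding genes in RefSeq (Sscrofa11.1). On chromosome 15, *SCN9A* (0.977 FPKM under CTRL and 0.908 FPKM under pLVX-*RBP4*) is followed by *SCN7A*, with 0.0456 FPKM in the CTRL group and listed at 0 in the other. On chromosome 13, *SCN10A*, listed at 0 in both groups, is followed by *SCN11A*, with 0.0111 and 0.0190 FPKM.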
